A study of Homo sapiens with 6 samples.

Results

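The regions where β-catenin was found after CHIR plus SB were compared with those found in RPMI medium alone. β-catenin was mapped by chromatin immunoprecipitation and sequencing (ChIP-seq) in SA121 cells, which are human embryonic stem cells kept as a line, after 6 h in the new medium. The RPMI cells were mock treated, and the CHIR+SB cells received CHIR99021 and SB431542 together. Each condition has 1 β-catenin library and 1 library made with control goat IgG, and each library was made from DNA of 3 parallel ChIPs that had been pooled. The RPMI list holds 260 peaks and the CHIR+SB list 1813, together 2073 of the 3126 peaks in the series, and all of them were taken. A peak of one list was called shared when it overlapped a peak of the other by at least 1 bp. With 1 library per condition there is no spread between replicates, so differences between the conditions are described and not tested.

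β-catenin is the nuclear effector of canonical Wnt signalling. Without a Wnt signal the kinase GSK3 marks it for degradation, and when GSK3 is blocked it accumulates, enters the nucleus and binds DNA through TCF and LEF factors, at target genes such as the feedback inhibitor AXIN2. CHIR99021 inhibits GSK3. SB431542 inhibits the type I receptors of activin, Nodal and TGFβ, whose SMAD2 and SMAD3 signal maintains pluripotency and, together with Wnt, directs formation of the primitive streak. The comparison addresses where β-catenin is found when Wnt signalling is activated while the activin and Nodal pathway is blocked.

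Promoter windows of 4 genes with high peaks are shown, because SP5 is a marker of Wnt activation and the other windows hold letters that most shared promoters have, as described further on. Each window runs from 250 bases before to 50 bases after the transcription start site (TSS), from RefSeq on GRCh38.p14, plus strand, 5′ to 3′. SP5, a transcription factor that Wnt signalling induces, had a peak with CHIR+SB and none in RPMI (window chr2:170715087-170715386). Capitals in the SP5 window mark CTTTGAT or CTTTGAA on either strand, the letters that TCF and LEF factors recognise.
SP5: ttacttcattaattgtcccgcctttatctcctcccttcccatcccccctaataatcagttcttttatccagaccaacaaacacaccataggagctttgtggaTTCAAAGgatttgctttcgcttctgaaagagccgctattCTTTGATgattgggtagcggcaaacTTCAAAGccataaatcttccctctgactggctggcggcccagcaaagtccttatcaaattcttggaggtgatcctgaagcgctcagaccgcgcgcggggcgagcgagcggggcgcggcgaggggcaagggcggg
The kinase CDK12 (window chr17:39461236-39461535), the translation re-initiation factor DENR (window chr12:122752574-122752873) and ERCC6L2, a protein related to DNA repair helicases (window chr9:95875441-95875740), had some of the highest peaks under both conditions. Capitals in these windows mark TCTCGCGA on either strand, and in the ERCC6L2 window 2 matches overlap.
CDK12: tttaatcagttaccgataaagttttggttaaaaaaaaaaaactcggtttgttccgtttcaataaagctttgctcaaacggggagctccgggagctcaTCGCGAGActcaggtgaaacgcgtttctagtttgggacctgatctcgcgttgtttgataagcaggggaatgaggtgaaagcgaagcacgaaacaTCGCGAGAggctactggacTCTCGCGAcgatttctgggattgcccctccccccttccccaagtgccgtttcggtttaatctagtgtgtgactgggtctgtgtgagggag
DENR: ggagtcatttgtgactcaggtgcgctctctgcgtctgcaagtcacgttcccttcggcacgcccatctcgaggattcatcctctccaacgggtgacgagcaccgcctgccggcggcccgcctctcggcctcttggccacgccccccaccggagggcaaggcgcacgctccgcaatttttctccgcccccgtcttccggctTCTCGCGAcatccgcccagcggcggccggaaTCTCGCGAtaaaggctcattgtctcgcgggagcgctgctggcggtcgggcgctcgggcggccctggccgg
ERCC6L2: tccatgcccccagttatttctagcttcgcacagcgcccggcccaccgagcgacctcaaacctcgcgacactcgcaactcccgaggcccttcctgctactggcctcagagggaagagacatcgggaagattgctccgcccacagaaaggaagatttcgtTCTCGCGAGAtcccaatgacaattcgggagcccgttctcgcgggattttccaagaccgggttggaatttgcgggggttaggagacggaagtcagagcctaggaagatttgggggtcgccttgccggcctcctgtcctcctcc
The SP5 window held 3 matches to the TCF and LEF letters and none to TCTCGCGA, and the other windows held 2 or 3 matches to TCTCGCGA and none to the TCF and LEF letters.

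Reads within peaks numbered 6272 in RPMI and 39022 in CHIR+SB, and the IgG libraries 1294 and 12664 reads in the same peaks. Signal below is the authors' normalized signal, the read count multiplied by 1 factor per library. By these factors the CHIR+SB β-catenin library was 1.14 times as deep as that of RPMI and its IgG library 1.75 times as deep. The lowest signal of a listed peak was 9.61 in RPMI (15 reads) and 6.75 in CHIR+SB (12 reads), so the CHIR+SB list reaches further down. All genes are those the authors assigned to a peak, coordinates of peaks are in hg19, and intervals are 95% intervals that cover counting error only.

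AXIN2, SP5 and EVX1, taken as markers of Wnt activation, had no peak in the RPMI list and peaks with 81, 85 and 94 reads in the CHIR+SB list. By signal these peaks rank 10, 7 and 5 in the CHIR+SB list. The 3 genes were given as markers of this comparison, so their presence in 1 list only is a description and not a check.

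Most CHIR+SB peaks had no counterpart in RPMI. Of 1813 peaks, 1654 (91.2%) overlapped no RPMI peak and are called CHIR+SB-only, and 159 were shared. Of the 260 RPMI peaks, 160 were shared and 100 (38.5%) were RPMI-only. With the 260 highest peaks of each list, 93 CHIR+SB peaks were shared, 167 were CHIR+SB-only and 166 RPMI peaks were RPMI-only. Few peaks missed each other narrowly: 6 of the 1654 CHIR+SB-only peaks and 3 of the 100 RPMI-only peaks had a peak of the other list within 1 kb. The CHIR+SB-only peaks were low and narrow, with a median of 17 reads, a signal of 9.56 and a width of 241 bp, against 33 reads, a signal of 18.6 and 513 bp for the shared peaks of the same list. The ratio of β-catenin to IgG signal was alike, with medians of 4.29 and 4.07. Of the CHIR+SB-only peaks, 728 (44.0%, 41.6 to 46.4%) reached the lowest signal of the RPMI list.

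The share of CHIR+SB peaks found in the other lists was higher where they had more reads. Among peaks with 12 to 14 reads, 0.456% overlapped an RPMI peak, and among those with 50 to 124 reads 45.6% did. These regions were also set beside the list of cells given CHIR alone, which is another treatment and a separate library of the series. By its factor that library was 1.67 times as deep as that of RPMI, and its lowest listed peak had 20 reads (signal 7.68). CHIR+SB peaks with 12 to 14 reads had signals of 6.75 to 7.88, around that limit. Of the CHIR+SB-only peaks, 511 (30.9%, 28.7 to 33.2%) overlapped a CHIR peak, and of the shared peaks 152 of 159 (95.6%, 91.1 to 98.2%). Among CHIR+SB-only peaks with 12 to 14 reads, 19 of 437 (4.35%) lay in the CHIR list, and among those with 50 to 94 reads 30 of 31 (96.8%). The CHIR+SB-only peaks thus hold a small group of high peaks that the CHIR list also holds, and a large group of low peaks that it mostly does not. The part of treatment and of the lower limits of the lists in this was not tested.

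**Figure D1:**
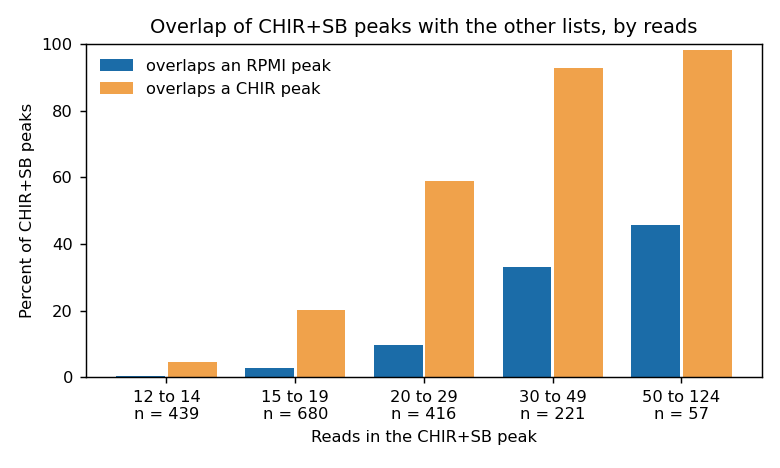
Percent of CHIR+SB peaks (vertical axis) that overlap a peak of the RPMI list (blue) or of the CHIR list (orange), in 5 classes of reads per CHIR+SB peak (horizontal axis, n is the number of peaks). Overlap with CHIR climbs from 4.56% to 98.2% and overlap with RPMI from 0.456% to 45.6%.

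Shared peaks sat at promoters and CHIR+SB-only peaks mostly did not. A peak is called a promoter peak here when it lies 1 kb or less from the TSS of its gene, taken at the peak centre. Promoters took 118 of the 159 shared CHIR+SB peaks (74.2%, 66.7 to 80.8%), 144 of the 1654 CHIR+SB-only peaks (8.71%, 7.39 to 10.2%) and 25 of the 100 RPMI-only peaks (25%, 16.9 to 34.7%). Peak centres were a median of 0.105 kb from the TSS for shared, 55.2 kb for CHIR+SB-only and 42.9 kb for RPMI-only peaks. The CHIR+SB-only peaks away from promoters were spread evenly over gene bodies (505, 30.5%), upstream (516, 31.2%) and downstream regions (489, 29.6%). Over 50 kb from the TSS lay 852 of them (51.5%, 49.1 to 53.9%), against 16 shared peaks (10.1%, 5.86 to 15.8%). The promoter share of CHIR+SB-only peaks was low at every read count, with 5.26% at 12 to 14 reads, 11.7% at 20 to 29 and 9.68% at 50 to 94.

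**Figure D2:**
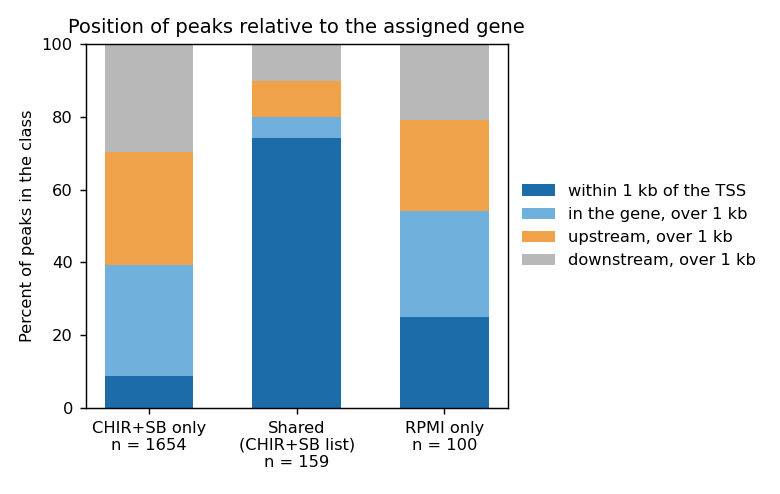
Percent of peaks (vertical axis) in 4 positions relative to the assigned gene, stacked for the CHIR+SB-only peaks, the shared peaks of the CHIR+SB list and the RPMI-only peaks. Peaks within 1 kb of the TSS make up 74.2% of the shared class, 25% of the RPMI-only class and 8.71% of the CHIR+SB-only class.

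The highest CHIR+SB-only peaks included those of EVX1, SP5, CDX2 and AXIN2. The highest was 2.56 kb upstream of EVX1, a homeobox gene of the primitive streak, with 94 reads and a signal of 52.9 (chr7:27278976-27280226). Next came a pair of peaks 1.73 kb apart on chromosome 2, assigned to the non-coding gene LOC440925 (88 reads, signal 49.5) and to SP5 (85 reads, signal 47.8, chr2:171570981-171571965). CDX2, a homeobox gene of trophoblast and posterior embryo, had 84 reads within the gene (signal 47.3, chr13:28539994-28540922). AXIN2 had 81 reads at its TSS (signal 45.6, chr17:63556640-63558080) and 60 reads 32.0 kb upstream (signal 33.8). None of these positions had an RPMI peak, whose signal in the whole list ran from 9.61 to 73.7.

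The other peaks among the 15 highest had 60 to 67 reads and signals of 33.8 to 37.7. Among them was a peak 12.9 kb upstream of MIXL1, a homeobox gene of the streak, with 60 reads. FOXB1, a forkhead transcription factor gene, had 66 reads 114 kb downstream, and MCC, a tumour suppressor gene that acts in Wnt signalling, 60 reads 1.27 kb from its TSS. The growth factor receptor gene FGFR1 had 60 reads 27.3 kb within the gene, the tubulin gene TUBB2A 60 reads 8.84 kb upstream and the ubiquitin-conjugating enzyme gene UBE2D2 65 reads 37.0 kb upstream. TSPAN18, a tetraspanin gene, and VAT1L each had 67 reads, 60.0 and 179 kb from the TSS. All 15 peaks overlapped a CHIR peak, the highest with 177 reads at CDX2 (signal 68.0, against 47.3 with CHIR+SB).

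IgG read counts, not scaled to peak width, were also high at these peaks. The highest IgG counts of the whole CHIR+SB list, 32 reads each, were at the CDX2 and AXIN2 peaks, and EVX1, SP5 and the shared ERCC6L2 peak followed with 27 each. The list median was 6 IgG reads, and the 20 highest peaks ranged from 11 to 32. These peaks were also wide, and the part of width in their IgG counts was not tested. The CDX2, SP5, EVX1 and AXIN2 peaks were 928, 984, 1250 and 1440 bp wide, against a list median of 260 bp. The ratio of β-catenin to IgG signal was 4.97 at EVX1, 4.50 at SP5, 3.75 at CDX2 and 3.62 at AXIN2, against a list median of 4.29. The part of IgG signal in the height of these peaks was not tested.

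Genes of the Wnt pathway, of early development and of control groups were followed in 12 lists with 257 genes in all. The lists were chosen with earlier results of these data known, so their shares are a description and not a test. A peak counts for a gene only where the authors assigned it to that gene. A near peak assigned to another gene is thus not counted, here and below. Of the 257 genes, 63 (24.5%) had a CHIR+SB-only peak within 50 kb of the TSS, against 3.12% of all 20056 protein-coding genes. In RPMI 3 of them had a peak within 50 kb, against 0.888% of all genes. Among 83 CHIR+SB peaks within 50 kb of a listed gene, 80 (96.4%) were CHIR+SB-only, a share near the 91.2% of the whole list, and 49 of the 80 overlapped a CHIR peak. None of 25 genes of differentiated cells and none of 20 housekeeping genes had an assigned peak of either list within 50 kb. These counts differ little from the 3.12% of all genes. Constitutive genes outside that list did have peaks. Ribosomal protein genes made up 10 of the 143 promoter peaks in RPMI, of which 2 were RPMI-only. By the genes of the CHIR+SB list they made up 5 of the 118 shared promoter peaks. That list assigns some of the same peaks, such as those of RPL12 and RPL7A, to other genes.

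Wnt feedback inhibitors were represented by 5 of 20 genes. AXIN2, the scaffold of the complex that degrades β-catenin, had 5 CHIR+SB-only peaks. They had 29 reads 66.4 kb downstream, 32 reads 45.4 kb downstream, 81 reads at the TSS, 34 reads 11.3 kb upstream and 60 reads 32.0 kb upstream. Of these, the peak with 32 reads had no CHIR peak over it. DACT1, which binds Dishevelled, had 24 reads 8.38 kb upstream, and RNF43, a ubiquitin ligase that removes Frizzled receptors, had 22 reads 14.1 kb within the gene. NKD1, another Dishevelled antagonist, had 15 reads at 0.72 kb, and DKK1, a secreted inhibitor of the LRP co-receptors, had 17 reads 39.0 kb downstream. By assigned peaks AXIN2 stood alone in this list above 24 reads, and LGR5, NOTUM and ZNRF3 were among the 15 members with none within 50 kb. A CHIR+SB-only peak of 30 reads (chr10:54073158-54073735) was assigned to PRKG1-AS1. It lay closer to the DKK1 TSS than the peak of 17 reads and was not counted for DKK1.

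Among ligands and receptors 7 of 26 genes had a CHIR+SB-only peak within 50 kb. WLS, which carries Wnt proteins to the cell surface, had 43 reads 44.1 kb upstream (signal 24.2). The receptor gene FZD7 had 3 peaks with 20, 29 and 34 reads between 10.8 and 39.3 kb upstream. The ligand gene WNT3, needed for primitive streak formation, had 27 reads 46.1 kb within the gene, the co-receptor gene ROR1 21 reads 1.49 kb within the gene and WNT5B 15 reads at 0.716 kb. FZD2 and WNT8A had peaks of both kinds, as given below. CHIR+SB-only peaks of ligands and receptors thus reached at most 43 reads, under the highest peaks of AXIN2, SP5 and CDX2.

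In the list of TCF factors, cofactors and AMOTL2, 3 of 10 genes had a CHIR+SB-only peak within 50 kb. They were TCF7 (32 reads, 43.4 kb upstream), TCF7L2 (19 reads, 34.5 kb upstream) and AMOTL2, a Wnt-responsive angiomotin gene (2 peaks of 18 reads each, at 0.076 and 0.987 kb). LEF1, TCF7L1 and CTNNB1, the gene of β-catenin itself, had no assigned peak within 50 kb. Of 9 transcription factor and cell cycle genes known as Wnt targets, 7 had a CHIR+SB-only peak within 50 kb. Besides SP5 and CDX2 they were MSX1 (50 reads, 2.73 kb upstream), CDX1 (34 reads, 0.158 kb upstream), CCND1, the gene of cyclin D1 (34 reads, 0.097 kb upstream), SP8 (28 reads, 10.4 kb downstream) and MSX2 (14 reads, 31.2 kb upstream). MYC and CDX4 had none assigned to them within that distance. CDX1 had 74 reads in the CHIR peak (signal 28.4, against 19.1 with CHIR+SB), and SP8 and MSX2 had no CHIR peak over theirs.

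**Figure D3:**
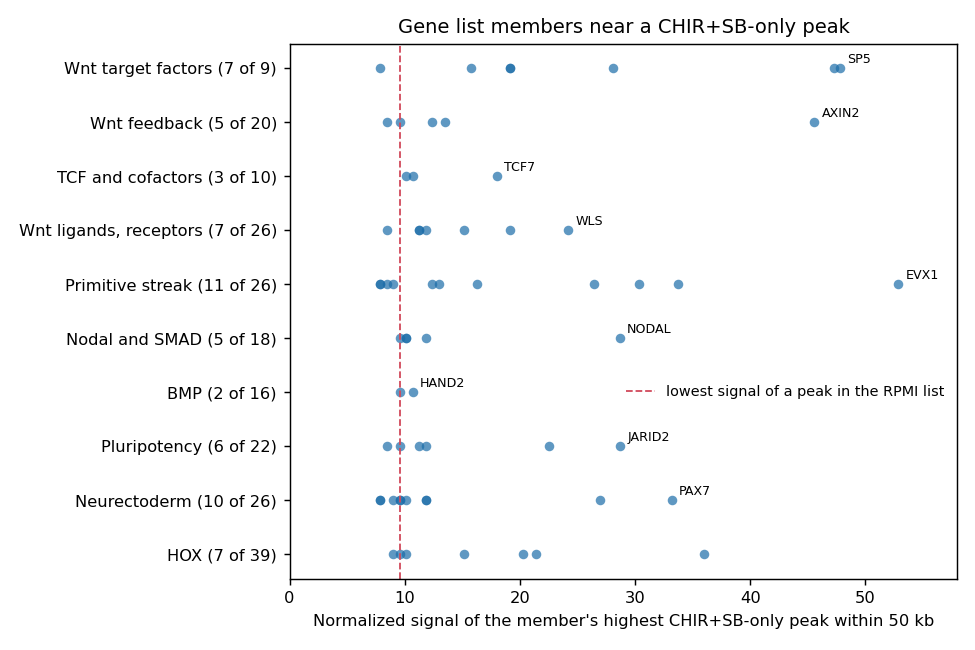
Normalized signal (horizontal axis) of the highest CHIR+SB-only peak within 50 kb of each gene that has one, with 1 point per gene and 1 row per gene list; the numbers give the genes with such a peak of all genes in the list. The dashed line marks 9.61, the lowest signal in the RPMI list; EVX1 at 52.9, SP5 at 47.8, CDX2 at 47.3 and AXIN2 at 45.6 lie far to its right, and many other points lie beside it.

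Of 26 primitive streak and mesendoderm genes, 11 had a CHIR+SB-only peak within 50 kb. After EVX1 and MIXL1 the highest were EOMES, a T-box factor of the streak (54 reads, 6.36 kb upstream, chr3:27769832-27770465), and GATA4, a factor of heart and endoderm (47 reads, 5.85 kb within the gene). FGF8, a growth factor of the streak, had 29 reads at 1.19 kb, FGF17 23 reads at 7.54 kb and TBX3 22 reads at 44.9 kb. OTX2, an anterior homeobox gene, had 16 reads at 0.179 kb, HHEX 15 reads at 1.73 kb, GSC, a gene of the organizer, 14 reads at 1.40 kb and MSGN1 14 reads at 15.5 kb. HHEX, GSC, MSGN1 and TBX3 had no CHIR peak over theirs, and the other 7 had one. TBXT, the gene of Brachyury, was among the 15 with no assigned peak within 50 kb in either list. FOXA2 was another of these, although a peak assigned to LINC00261 beside it is given below.

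Genes of the pathway that SB431542 blocks also had CHIR+SB-only peaks. NODAL, the ligand, had 51 reads 13.9 kb upstream (signal 28.7, chr10:72214884-72215776). Its co-receptor gene CRIPTO, listed as TDGF1, had 18 reads at 0.301 kb, and FOXH1, the DNA-binding partner of SMAD2, had 18 reads at 8.09 kb. SMAD2, a mediator of the pathway, had 17 reads at 12.1 kb. In all 5 of 18 genes had such a peak, and LEFTY1, LEFTY2 and SMAD7 had none assigned to them within 50 kb. NODAL, CRIPTO and FOXH1 had 62, 33 and 36 reads in the CHIR peak over theirs. By normalized signal these were 23.8, 12.7 and 13.8, against 28.7, 10.1 and 10.1 with CHIR+SB. Of 16 genes of the BMP pathway, 2 had such a peak, ID3 with 17 reads at 3.71 kb and HAND2 with 19 reads at 7.71 kb and 18 at 15.5 kb.

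Among 22 pluripotency genes 6 had a CHIR+SB-only peak within 50 kb. JARID2, a Polycomb cofactor, had 51 reads 37.3 kb upstream (signal 28.7), and POU5F1, the gene of OCT4, had 40 reads 1.41 kb upstream (signal 22.5, chr6:31139543-31140176). Both overlapped a CHIR peak. SALL1 (21 reads, 30.3 kb), L1TD1 (20 reads, 3.78 kb), SOX2 (17 reads, 8.86 kb) and LIN28A (15 reads, 19.2 kb) did not. NANOG had no assigned peak within 50 kb.

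Of 26 neurectoderm genes 10 had such a peak. PAX7, a factor of neural crest and muscle, had 59 reads 15.8 kb within the gene (signal 33.2), and GBX2, a factor of the hindbrain border, had 48 reads 8.44 kb downstream and 34 reads 5.47 kb upstream. The other 8 genes had at most 21 reads. PAX2 had 18 reads at 2.98 kb, with a CHIR peak over them. NKX2-2 (21 reads, 0.536 kb), PAX3 (21 reads, 29.6 kb, and 19 reads, 10.1 kb), EN1 (17 reads, 7.12 kb), NEUROG2 (16 reads, 5.69 kb), LHX5 (14 reads, 43.6 kb) and SIX6 (14 reads, 0.0395 kb) had none. This list thus held 2 genes with high peaks and 8 whose peaks had 14 to 21 reads.

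Among 39 HOX genes 7 had a CHIR+SB-only peak within 50 kb. They included HOXD13 (38 reads, 4.33 kb), HOXB13 (36 reads, 4.37 kb), HOXD1 (27, 15 and 14 reads, 3.04 to 5.19 kb), HOXB3 (18 reads, 4.13 kb), HOXA11 (17 reads, 2.12 kb) and HOXA10 (16 reads, 10.2 kb). No HOXC gene was among the 7. HOXB13 had 85 reads in its CHIR peak (signal 32.6, against 20.3 with CHIR+SB).

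Several genes collected many CHIR+SB-only peaks. Of 1369 genes with such a peak, 211 had 2 or more and 16 had 4 or more. ZNF608, a zinc finger gene, had 7, with 14 to 33 reads, between 455 kb downstream and 432 kb upstream of its TSS, and none of these overlapped a CHIR peak. FOXB1 had 6 peaks with 17 to 66 reads, of which 4 overlapped a CHIR peak, and AXIN2 had 5, of which 4 did. MYO3B, a myosin gene next to SP5 and LOC440925 on chromosome 2, had 5 with 15 to 34 reads, all of which overlapped a CHIR peak. LPHN2, an adhesion receptor gene, had 5 peaks with 14 to 16 reads, and none overlapped a CHIR peak. PAX3 and PRKG1-AS1 also had 5 each, of which 1 each did. Genes with equal numbers of peaks therefore differed in how many of them overlapped a CHIR peak.

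CHIR+SB-only peaks without a CHIR peak over them numbered 1143, with a median of 15 reads and a highest count of 52. The highest lay 29.7 kb upstream of RMI2, a gene of DNA repair (52 reads, 10 IgG reads). It was followed by LINC00261, a long non-coding RNA gene of endoderm beside FOXA2 (42 reads, 11.0 kb within the gene), DUSP10, a phosphatase gene (41 reads, 26.5 kb), POM121L12 (38 reads, 452 kb) and SMYD2 (37 reads, 36.3 kb). Promoters held 77 of these 1143 peaks (6.74%, 5.35 to 8.35%) and 67 of the 511 that overlapped a CHIR peak (13.1%, 10.3 to 16.4%).

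At shared peaks the signal was on the whole close to equal. The 162 overlaps included 152 that were one-to-one, each peak overlapping a single peak in the opposite list. Over these 152 pairs the median ratio of CHIR+SB to RPMI signal was 1.09 (middle 50% of pairs from 0.878 to 1.30, range 0.452 to 3.57). It was at least 1.5-fold higher in 27 pairs (17.8%) and at least 1.5-fold lower in 10 (6.58%). Per kb of peak width the balance was the opposite, with 5 pairs higher and 30 lower. The counting interval of the ratio lay above 1 in 13 pairs and below 1 in 4.

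Of the 42 promoter pairs with 30 or more RPMI reads none had a ratio of 1.5 or more, 4 had one at least 1.5-fold lower, with an interval below 1, and the median was 0.984. ERCC6L2 had 83 reads in RPMI and 123 with CHIR+SB, a signal ratio of 1.30 (0.977 to 1.74). CDK12 had 85 and 107 reads, with a ratio of 1.11 (0.823 to 1.49). Both intervals include 1. QRICH1 had 51 and 76 reads, a ratio of 1.31 (0.905 to 1.90), and the ubiquitin ligase gene RNF167 62 and 69 reads, a ratio of 0.977 (0.683 to 1.40). RPL10A, a ribosomal protein gene, had 52 and 32 reads, a ratio of 0.540 (0.337 to 0.855). At DENR and at DYNC1H1, a dynein gene, 1 CHIR+SB peak spanned 2 RPMI peaks, with 104 against 42 and 41 reads at DENR and 72 against 42 and 32 at DYNC1H1. At RBM39, a splicing factor gene with the highest peak of both lists, the order was the other way round, with 115 reads in 1 RPMI peak against 124 and 50 in 2 CHIR+SB peaks.

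The largest ratios, not scaled to peak width, were found away from promoters. ADD3, an adducin gene, had a peak 161 kb downstream with 16 reads in RPMI and 65 with CHIR+SB, a ratio of 3.57 (2.04 to 6.60). MIR4643 had 15 and 51 reads 223 kb upstream, a ratio of 2.98 (1.65 to 5.72), and KCNJ2, a potassium channel gene, 20 and 67 reads 863 kb downstream, a ratio of 2.94 (1.76 to 5.12). PTBP2, a neuronal splicing factor gene, had 16 and 47 reads, a ratio of 2.58 (1.44 to 4.87), and PLAGL1 16 and 44 reads, a ratio of 2.41 (1.34 to 4.58). Away from promoters 12 of 38 pairs were at least 1.5-fold higher and 3 lower, with a median of 1.21. At promoters 15 of 114 were higher and 7 lower, with a median of 1.07. Per kb of peak width the medians were 0.855 away from promoters and 0.881 at promoters. The 4 ratios whose interval lay below 1 were at promoters. They were 0.452 (0.236 to 0.836) at WDR77, with 33 and 17 reads, and 0.516 (0.282 to 0.923) at LOC100130451, with 34 and 20. The RPMI list assigns the second of these peaks to SPAG16. The others were 0.540 at RPL10A, given above, and 0.559 (0.307 to 0.995) at COPB2, with 33 and 21. In 8 of the 152 pairs, all at promoters, the 2 lists assign different genes, and pairs are named here by the CHIR+SB list.

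Peak width moved with these ratios. Reads were counted between the limits that each list sets, and the ADD3 peak was 104 bp wide in RPMI and 1020 bp in CHIR+SB. In the 105 pairs with a wider CHIR+SB peak the median ratio was 1.21, and in the 46 with a narrower one 0.802. Over 57 pairs with widths within 0.8 to 1.25 times each other it was 0.998, with 1 pair at least 1.5-fold higher and 3 at least 1.5-fold lower. Signal per kb of peak gave a median ratio over all pairs of 0.877, and at ADD3 0.364, at MIR4643 0.555 and at KCNJ2 1.30. The median ratio also differed by RPMI read count, with 1.32 at 15 to 19 reads, 1.11 at 20 to 29 and 0.984 at 30 reads or more. How much of the difference between promoter and other pairs comes with width or read count was not tested, since only 8 pairs away from promoters had near-equal widths, with a median ratio of 0.988.

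**Figure D4:**
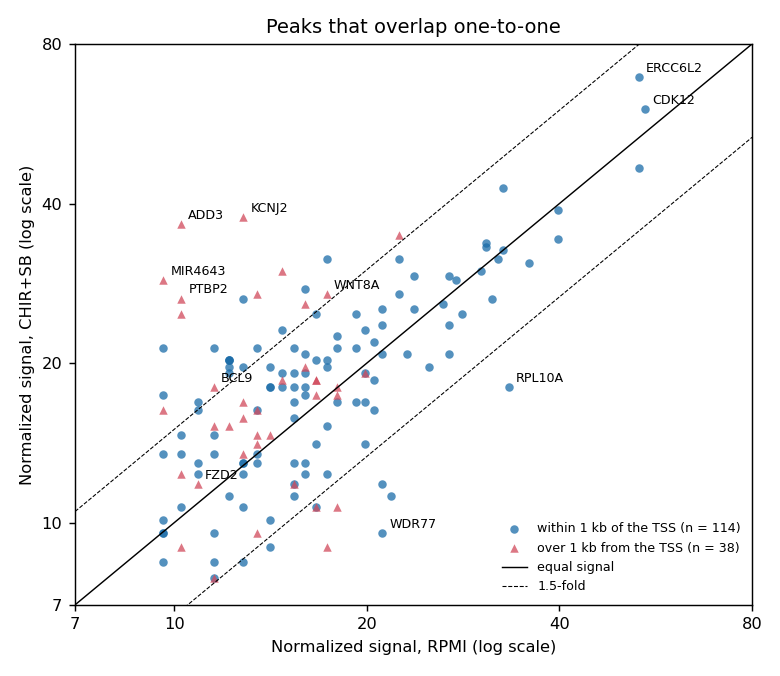
Normalized signal in CHIR+SB (vertical axis) against RPMI (horizontal axis), both on log scales, for the 152 one-to-one pairs of peaks; circles are peaks within 1 kb of the TSS and triangles are other peaks, by the RPMI list. The solid line is equal signal and the dashed lines are 1.5-fold; ADD3, MIR4643, KCNJ2 and PTBP2 lie above the upper dashed line at low RPMI signal, and CDK12 and ERCC6L2 lie near the solid line at the upper right.

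A few Wnt pathway genes already had a peak in RPMI. WNT8A, a ligand of the early streak, had 27 reads in RPMI and 48 with CHIR+SB 11.4 kb downstream, a signal ratio of 1.56 (0.954 to 2.60), and a further CHIR+SB-only peak of 20 reads 8.38 kb downstream. BCL9, a nuclear adaptor of β-catenin, had 18 and 32 reads 46.3 kb within the gene, a ratio of 1.56 (0.850 to 2.95). FZD2 had 17 and 21 reads 16.9 kb upstream, a ratio of 1.08 (0.545 to 2.19), in a group with 3 CHIR+SB-only peaks of 20, 20 and 14 reads. At FZD1, 91.4 kb downstream, 2 RPMI peaks of 16 and 15 reads were spanned by 1 CHIR+SB peak of 38 reads. The intervals of WNT8A, BCL9 and FZD2 include 1, and per kb of peak the ratios were 1.05, 0.714 and 0.393.

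RPMI-only peaks were mostly the lowest of the RPMI list. Of the 100, 61 had 15 or 16 reads, against 19 of the 160 shared RPMI peaks, and 4 had more than 25 reads, against 71. The share of RPMI peaks found again with CHIR+SB was 32% at 15 to 19 reads, 85.4% at 20 to 29, 92.7% at 30 to 49 and 100% of the 12 peaks with 50 to 115. The highest RPMI-only peaks were at the FSIP1 promoter (37 reads, 5 IgG reads), at NRTN, the gene of the growth factor neurturin (32 reads, 4.55 kb downstream), at the transporter gene SLC6A11 (30 reads, 57.4 kb within the gene) and at the promoter of LAMP1, a lysosomal membrane protein gene (28 reads). NBPF15 followed with 25 reads, PURA and PRIM2 with 24 each, and TMCO1, CCDC92 and the ligand gene WNT10A with 23 each. Of all RPMI-only peaks 27 (27%, 18.6 to 36.8%) overlapped a CHIR peak, among them FSIP1, NRTN, SLC6A11 and WNT10A. A count of 25 or more in RPMI without a CHIR+SB peak was thus rare.

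Most promoters of the shared class held the same 8 letters. The letters TCTCGCGA, shown in the CDK12, DENR and ERCC6L2 windows, were noticed in those windows and then counted on either strand in the promoter windows of all protein-coding genes that have one. They belong to the longer palindrome TCTCGCGAGA, known as a recognition sequence of the transcription factor BANP at CpG island promoters. A gene counted when any of its windows held the letters, and windows were found for 92 of 116 genes with a shared, 20 of 25 with an RPMI-only and 101 of 140 with a CHIR+SB-only promoter peak. Of 15843 genes 323 did (2.04%, 1.82 to 2.27%). Of the 92 genes with a shared promoter peak 78 did (84.8%, 75.8 to 91.4%), and of the 20 with an RPMI-only promoter peak 14 did (70%, 45.7 to 88.1%).

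Among genes with a CHIR+SB-only promoter peak the letters were found in 26 of 101 (25.7%, 17.6 to 35.4%). These divide by the CHIR list into 21 of 48 genes whose peak overlapped a CHIR peak (43.8%, 29.5 to 58.8%) and 5 of 54 whose peak did not (9.26%, 3.08 to 20.3%), and AMOTL2 had a peak of each kind. The first group includes CUL3, the gene of a ubiquitin ligase scaffold, HSPA4, a chaperone gene, and UBE2D3, and the second HELLS, a chromatin remodeller gene, and RPL4. The share was also higher among peaks with more reads. It was 71.9% of 32 promoter peaks with 15 to 19 reads in the RPMI list and 94.7% of 38 with 30 or more, and in the CHIR+SB list 16.7% of 18 with 12 to 14 reads and 77.8% of 72 with 30 or more.

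**Figure D5:**
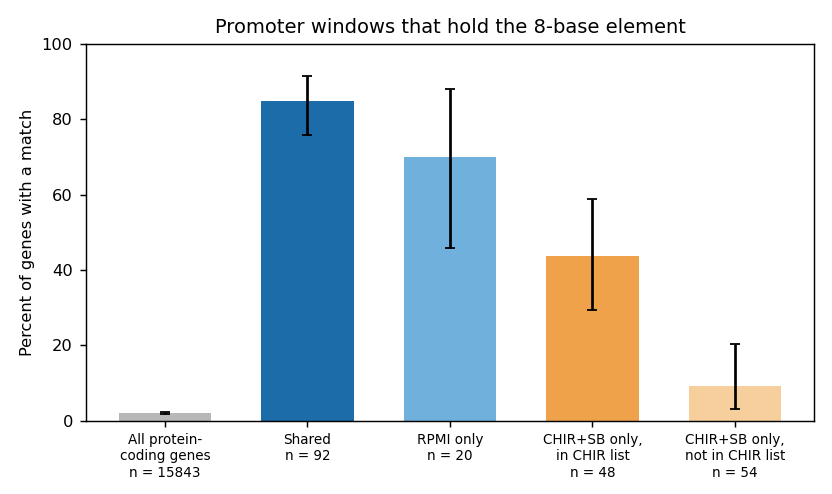
Percent of genes (vertical axis, with exact 95% binomial intervals as bars) with the 8 letters in a promoter window, for all protein-coding genes and for genes with a promoter peak in each class; n is the number of genes with a window. The share is 84.8% for shared peaks, 70% for RPMI-only peaks, 43.8% and 9.26% for CHIR+SB-only peaks in and not in the CHIR list, and 2.04% for all genes.

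In shared promoters with a single window, 54 of 63 held the letters (85.7%), with 105 matches in all and 2 or more in 39 windows. Overlapping matches on the 2 strands, as at ERCC6L2, count separately. The matches started a median of 59 bases before the TSS, and 78 of 105 (74.3%) within the last 100 bases before it. Among the 14 shared genes without the letters were ASXL1, a Polycomb-associated gene, EIF5, a translation factor gene, and CDC20, a gene of the anaphase-promoting complex. BANP itself had a shared promoter peak with the letters, with 25 reads in RPMI and 49 with CHIR+SB and a signal ratio of 1.72 (1.04 to 2.91), which per kb of peak was 0.928.

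The signal at shared promoters with and without the letters covered overlapping ranges. Shared promoters that held them had a median RPMI signal of 16.7 (81 peaks), and those that did not 14.7 (15 peaks). The median CHIR+SB over RPMI ratio was 1.02 over 77 one-to-one promoter pairs with the letters and 1.26 over 14 without, and the ranges, 0.452 to 2.22 and 0.708 to 1.66, overlap.

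Other letters did not separate the classes in this way. The TCF and LEF letters stood in 5.61% of 11786 single-window promoters, in 4 of 63 of the shared class (6.35%) and in 3 of 69 of the CHIR+SB-only class (4.35%), which were SP5, SIX6 and LYRM7. The ETS letters CCGGAAG stood in 15.1% of all, 28.6% of the shared and 18.8% of the CHIR+SB-only promoters. Exact letters of the NRF1 and YY1 motifs stood in at most 3.17% of either class. CpG frequency, as observed over expected, had a median of 0.768 over all, 0.907 over shared and 0.846 over CHIR+SB-only promoters. These windows are those of the assigned genes and not the sequence of the peaks, so most CHIR+SB-only peaks, which lie away from promoters, are not covered by this count.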

How the data were processed

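The submitters' processing notes name Bowtie as a tool and mm9 and hg19 as builds. The human lists are read as hg19. Per the labels' protocols, DNA of 3 parallel ChIPs was pooled per library. Total depth, the tool that called peaks and its settings were not given in the sources used here. Per the file headers, each deposited list gives for every peak the count of β-catenin and of IgG reads, both normalized, their ratio (10000 as placeholder at 0 IgG reads), the assigned gene and its distance. Decimal commas were read as points.

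The distance, deposited by the authors in bases as another number beside the counts, was converted to kb. Peaks were matched at 1 bp overlap. Shares carry exact 95% Clopper-Pearson intervals, and signal ratios exact conditional binomial intervals from the read counts. The matching and the intervals were tested on simulated data. Of the gene names, 100% (RPMI) and 99.4% (CHIR+SB) matched RefSeq GRCh38.p14, used for names and promoter windows only. Python 3.11.15, pandas 2.3.3, numpy 2.4.6, scipy 1.17.1 and matplotlib 3.10.9 were used.

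The genes named are those of the 15 highest CHIR+SB-only, 10 highest shared and 10 highest RPMI-only peaks, the 5 highest and 5 lowest pair ratios with an interval without 1 (4 lowest existed), list members with a peak within 50 kb, the markers and the genes with most CHIR+SB-only peaks. The members and gene lists were chosen with earlier results of these data known. Others named (RMI2 and the peaks after it, BANP, and the genes listed with the promoter letters) were chosen after their values were seen. Results at a few genes that the rule names are not reported here.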

Additional observations from a re-analysis of the deposited data

How the results depend on the processing

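No paired analysis was possible because each condition has 1 library, and for the same reason no replicate could be left out. Requiring an overlap of at least 0.5 of the shorter peak, or centres within 500 bp, left the class sizes and the 91.2% within 1.5 times or within the counting interval. With signal at or above 9.61 in both lists, 728 CHIR+SB-only peaks were left, 83.3% of the CHIR+SB list, with 11.4% at promoters. With the 260 highest peaks of each list the classes held 167 CHIR+SB-only, 93 shared and 166 RPMI-only peaks, and 64.2% of the CHIR+SB peaks were unshared. A promoter window of 2.5 kb gave a promoter share of 13.0% for CHIR+SB-only peaks. Signal per kb of peak turned the median pair ratio from 1.09 to 0.877, with 5 pairs at least 1.5-fold higher and 30 lower. It also turned the ratios at LOC100130451 (2.46), PLAGL1 (0.560), PTBP2 (0.585), MIR4643 (0.555) and ADD3 (0.364) to the other side of 1. Less IgG signal, 20 pairs were at least 1.5-fold lower. Raw reads gave a median of 1.245 and 5 lower pairs. Within 10 kb, 40 listed genes were near a CHIR+SB-only peak. With either change of the promoter share the shared class kept the highest and the CHIR+SB-only class the lowest promoter share. Read counts limit single peaks: at 15 reads a peak is close to the lowest of either list.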
